A study of Mus musculus with 80 samples.

Results

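The clustered histone genes make the bulk of the histone protein that new DNA is wrapped on, and their RNA was followed here in 2 kinds of mouse blood-forming cell, the hematopoietic stem cell (HSC) and the progenitor cell (HPC). The members were the rows of both gene tables whose GENCODE M21 symbol begins with Hist1h, Hist2h, Hist3h or Hist4h and that held a read in at least 3 libraries. There were 63 of them among 41388 genes of the first table. M21 lists 70 such symbols, of which 67 had a row. The other 4 rows, Hist2h2aa1, Hist2h2aa2, Hist2h3b and Hist2h3c1, were 0 in all 80 libraries. Hist1h2bh, Hist1h2bm and Hist2h2bb were not analysed here. By symbol, 6 members belong to the linker histone H1 family, 18 to H2A, 16 to H2B, 10 to H3 and 13 to H4. Among them, M21 lists Hist1h2aj, Hist1h2al and Hist3h2bb-ps as pseudogenes.

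All animals were labelled B6, and the 80 libraries fell into 20 groups. The age series held HSC at E14 (3 libraries), E16 (4), E18 (3), P0 (4), P7 (4), P14 (4) and 8 weeks, called Adult (4), where E is an embryonic and P a postnatal day, and HPC at E16 (3), P0 (4), P7 (4), P14 (5) and Adult (4). At P0, wild type was set against cells labelled Ifnar ko, in HSC (5 and 4 libraries) and in HPC (4 and 4). Ifnar is the receptor of type I interferon. At P14, HPC carried Ifnar +/- or -/- together with Flt3 +/+ or Flt3 ITD/+: 4 libraries of Ifnar +/-, Flt3 +/+, 4 of Ifnar +/-, Flt3 ITD/+, 4 of Ifnar -/-, Flt3 +/+ and 5 of Ifnar -/-, Flt3 ITD/+. Flt3 is a receptor kinase of early progenitors, ITD is an internal tandem duplication that activates it, and every P14 genotype group lacked at least 1 Ifnar allele. The labels give neither the sorting markers nor the organ, and they do not say whether the replicates were separate animals, so the p-values measure the spread between these libraries.

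A nucleosome is an octamer of H2A, H2B, H3 and H4 with DNA around it, and H1 binds where the DNA enters and leaves. Most clustered histone genes lack introns, are transcribed in S phase with the coactivator Npat, and yield RNA that ends at a short stem-loop, bound by Slbp, in place of a poly(A) tail. Some of them are also known to give polyadenylated RNA, and a separate group of replacement variant genes, outside the clusters, is expressed through the cell cycle.

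The stem-loop was searched for as a run of 16 bases that opens with GGNNCTT and closes with AGNNCC (N is any base), with T as the middle one of the 3 bases between them, on the sense strand of the M21 transcripts. It was found in 41 of the 63 members, against 136 of 21901 protein-coding genes (0.621%). There were 8 distinct sequences, and the most frequent was shared by 21 members. The stem-loops of the members that the levels below turn on are printed from those transcripts, 5′ to 3′, with the motif in capitals and 5 bases on either side.
Hist1h1c: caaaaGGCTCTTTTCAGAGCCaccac
Hist1h1e: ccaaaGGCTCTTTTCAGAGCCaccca
Hist1h2ae: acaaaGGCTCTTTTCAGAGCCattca
Hist3h2a: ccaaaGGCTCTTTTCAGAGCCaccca
Hist1h3e: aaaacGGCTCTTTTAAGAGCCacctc
Hist1h4d: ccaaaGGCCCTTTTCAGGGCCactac
Hist1h4i: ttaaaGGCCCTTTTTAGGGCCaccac
Hist1h1c, Hist1h1e, Hist1h2ae and Hist3h2a share 1 stem-loop, while Hist1h3e, Hist1h4d and Hist1h4i each have another. The annotated transcripts of 21 members run more than 100 bases past the stem-loop, among them Hist1h4d by 770 bases, Hist1h1c by 840, Hist1h1e by 1153 and Hist3h2a by 1643. That of Hist1h2ae runs 151 bases past it. Gene lengths found from the deposited HSC values were shorter than in M21 for some of these. They were 393 bases against 1138 for Hist1h4d, 748 against 1930 for Hist1h1e and 460 against 704 for Hist1h2ae. Reads past the stem-loop may thus not have been counted for these genes. The motif was not in the annotated transcripts of the other 22 members, which include Hist1h1a, Hist1h1b, Hist1h2bc and Hist2h2be. No match says only that these letters are not in the annotated transcript.

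RefSeq (GRCm38.p6) start sites matched 55 members with 56 promoter entries, 50 of them on chromosome 13, 3 on chromosome 3, 2 on chromosome 11 and 1 on chromosome 6. In windows of 250 bases before to 50 after the start, with both strands read, TATAAA stood in 60.7% of the member promoters and in 13.6% of all 32851 entries. CCAAT stood in 83.9% against 37.4%, in every H1, H2A, H2B and H3 entry but in only 25% of the H4 entries. AAACACA, known as the H1 box, stood in 83.3% of the H1 entries (5 of 6) and in 7.18% of all promoters. The 150 bases before the start of the H1 genes with the most RNA are shown because these genes lead the results; capitals mark these 3 motifs on either strand.
Hist1h1a (H1f1, chr13:23763518-23763667, plus strand): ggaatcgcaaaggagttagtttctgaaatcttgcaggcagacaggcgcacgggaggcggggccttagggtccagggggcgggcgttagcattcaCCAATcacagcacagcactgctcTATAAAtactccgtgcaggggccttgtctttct
Hist1h1b (H1f5, chr13:21780626-21780775, minus strand): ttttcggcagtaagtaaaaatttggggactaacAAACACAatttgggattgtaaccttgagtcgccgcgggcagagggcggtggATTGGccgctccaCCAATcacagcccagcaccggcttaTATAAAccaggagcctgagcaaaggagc
Hist1h1c (H1f2, chr13:23738657-23738806, plus strand): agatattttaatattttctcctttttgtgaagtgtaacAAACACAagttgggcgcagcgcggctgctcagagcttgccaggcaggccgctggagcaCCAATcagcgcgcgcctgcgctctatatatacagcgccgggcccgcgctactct
Hist1h1e (H1f4, chr13:23622559-23622708, minus strand): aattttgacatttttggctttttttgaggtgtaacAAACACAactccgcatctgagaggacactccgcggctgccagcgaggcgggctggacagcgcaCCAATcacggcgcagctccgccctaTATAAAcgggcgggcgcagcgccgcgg
In the printed window all 4 hold CCAAT, first met between -66 and -52 from the start. Hist1h1a holds TATAAA at -33 and no H1 box in the printed window, whereas Hist1h1c holds the H1 box at -112 and no TATAAA there. Hist1h1b and Hist1h1e hold all 3 motifs.

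Library size ran from 6.95 to 92.1 M (mega) reads, and genes with a read from 15315 to 22419. The RNA of a few members made up nearly all of the signal: 10 of the 63 held 89.3% of the members' CPM (reads scaled to a common library total). Hist1h4d (H4) held 21.5% and Hist1h1b (H1) 21.2%. H1 genes together held 43.9% of the member reads, H4 genes 28.5%, H2B genes 17.6%, H2A genes 8.72% and H3 genes 1.22%. How the cDNA was primed is not given, so these shares and levels may differ from those of the RNA in the cells, which was not tested. Per length (RPKM, CPM per kilobase of exon), the mean level over the libraries was 142.4 for Hist1h4d, 74.4 for Hist1h1b, 32.07 for Hist1h1e, 28.95 for Hist1h1a, 25.95 for Hist1h2ae, 23.33 for Hist1h2bc and 15.81 for Hist1h4i. The most abundant H3 gene, Hist1h3d, was at 1.493. Of the 63 members, 43 stayed under 150 reads in every library, so their values carry a large counting error. Hist1h2ao and Hist1h2ap, with 6.5 and 6.93% of their 50-base stretches unique, held reads in only 39 and 36 of the libraries. The testis members Hist1h1t, Hist1h2aa and Hist1h2ba never exceeded 14, 3 and 5 reads. Members share sequence: over M21 transcripts, a median of 50.7% of a member's 50-base stretches were unique to its gene, and 7 members had under 10% unique. Reads of such members can be split among copies or lost, while Hist1h1a, Hist1h1b and Hist2h2be were unique throughout and Hist1h4d was 89.8% unique. In M21, Hist1h1e overlaps Hist1h2be, and Hist3h2a overlaps Trim17, on the same strand, so reads of these pairs cannot be told apart with certainty.

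**Figure D1:**
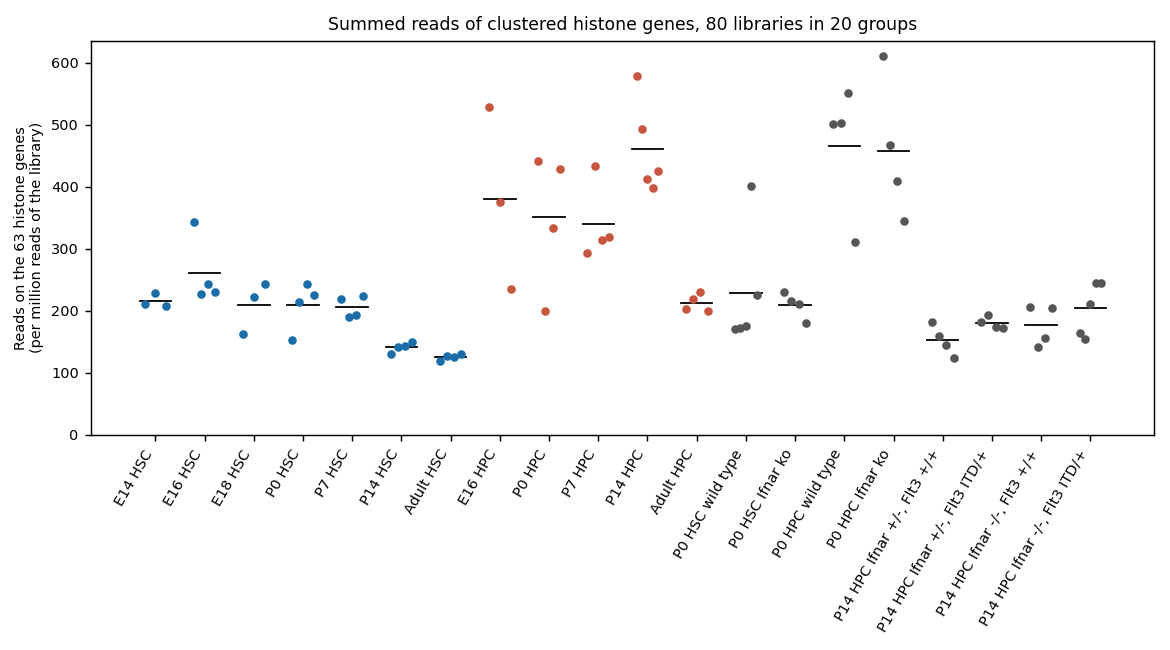
Summed CPM of the 63 clustered histone genes (vertical axis, linear), for each of 80 libraries (points) in 20 groups, with the group mean as a line; HSC ages are blue, HPC ages red and genotype groups grey. Adult HSC lie at 119 to 130, the lowest of the HSC ages, and P14 HPC of the age series lie at 398 to 579.

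In HSC the summed CPM of the members was highest at E16 and lowest in the Adult group. It came to 216 ± 11.3 at E14 (SD, n = 3), 261 ± 55.5 at E16 (n = 4), 210 ± 41.6 at E18 (n = 3), 209 ± 39.1 at P0, 206 ± 17.3 at P7, 141 ± 7.41 at P14 and 125 ± 4.83 in Adult (n = 4 each). Every P14 library (131 to 149) and every Adult library (119 to 130) lay below every library of the earlier ages. In HPC the sum was 380 ± 147 at E16 (n = 3), 351 ± 112 at P0, 340 ± 63.5 at P7 (n = 4 each), 462 ± 74.8 at P14 (n = 5) and 213 ± 14.7 in Adult (n = 4). The Adult HPC libraries (199 to 231) lay below all E16, P7 and P14 libraries, and the lowest P0 library (199.96) fell among them. In these bulk libraries, fewer cells of a type and less RNA per cell cannot be told apart.

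Between E16 and Adult HSC, 11 of 30 members tested fell and 0 rose, with a median log2 fold change of -0.79 over those tested, against 0.02 over all genes. A gene is called here at a Benjamini-Hochberg adjusted p under 0.05 over all genes tested, by limma on log2(RPKM + 0.5), and 24.5% of all genes were called in this comparison (12.3% higher and 12.2% lower). The 30 passed a filter of over 1 RPKM in at least 3 libraries, and 27 of them had a value below 0. By family, 3 of 5 H1, 4 of 8 H2A, 2 of 9 H2B, 0 of 2 H3 and 2 of 6 H4 members fell.

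Hist1h1b, the linker subtype with the most reads, stood at 95.6, 46.4, 43.4 and 50.7 RPKM at E16 and at 12.5, 14.1, 13.8 and 18.9 in Adult HSC. All Adult libraries were below all E16 libraries, with replicate 1 of E16 far above the other three. Its log2 fold change was -1.90 (SE 0.290, adjusted p = 1.83e-05 by limma). Hist1h1a, another linker gene, was at 32.8, 13.7, 8.01 and 9.49 RPKM at E16 and at 4.24, 4.05, 5.16 and 5.96 in Adult. These groups did not overlap, and the log2 fold change was -1.42 (SE 0.318, adjusted p = 0.00144 by limma). Hist1h1e was at 58.1, 34.0, 42.5 and 36.7 RPKM at E16 and at 14.4, 12.6, 22.6 and 25.0 in Adult, again without overlap, a change of -1.20 (SE 0.299, adjusted p = 0.00397 by limma). Hist1h1c stood at 9.28, 10.4, 11.1 and 8.59 RPKM at E16 and 6.05, 7.67, 7.28 and 6.19 in Adult. Its groups did not overlap either, but its value of -0.50 did not pass (adjusted p = 0.0916 by limma). Hist1h1d had a value of -0.69 with overlapping groups (adjusted p = 0.147), and Hist1h1t did not pass the filter.

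Of the core histones, Hist1h4i changed most. It was at 27.7, 28.8, 24.2 and 18.2 RPKM at E16 and at 8.96, 5.97, 4.76 and 6.09 in Adult HSC. The groups were apart, and it fell by 1.87 on the log2 scale (SE 0.295, adjusted p = 2.29e-05 by limma). Hist1h4d, the H4 gene with the most RNA, was at 94.8, 82.3, 111 and 109 RPKM at E16 and at 52.4, 69.0, 65.6 and 55.7 in Adult. Its groups did not overlap, but its log2 value of -0.70 just missed the threshold (SE 0.261, adjusted p = 0.0516 by limma). Hist2h2be, an H2B gene known also as polyadenylated RNA, fell by 0.81 (SE 0.231, adjusted p = 0.0106). Hist2h2be was at 10.5 to 13.0 RPKM at E16 and 4.83 to 7.72 in Adult, with no overlap. Hist1h2ae fell by 0.77 with overlapping groups (adjusted p = 0.0304), and Hist1h2bc, with the most H2B RNA per length, had a value of -0.55 that did not pass (adjusted p = 0.0931). Among members of low level, Hist1h2ak fell by 1.69, Hist1h2aj by 1.43, Hist3h2ba by 1.38, Hist1h2af by 1.14 and Hist1h4c by 0.98. M21 lists Hist1h2aj as a pseudogene, and 6.93% of its 50-base stretches were unique, so its reads may come from other copies. Hist1h1a, Hist1h1b, Hist1h1e, Hist1h2aj, Hist1h4i and Hist3h2ba kept their calls in each of 8 refits that left out 1 library, and between 8 and 11 members were called in them. With edgeR on recovered reads 6 members were called, Hist1h1a, Hist1h1b, Hist1h1e, Hist1h4i, Hist2h2be and Hist3h2ba. The call of Hist2h2be ended without Adult replicate 1, and those of Hist1h2ae, Hist1h2ak, Hist1h2af and Hist1h4c each held in 3 or 4 refits.

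**Figure D2:**
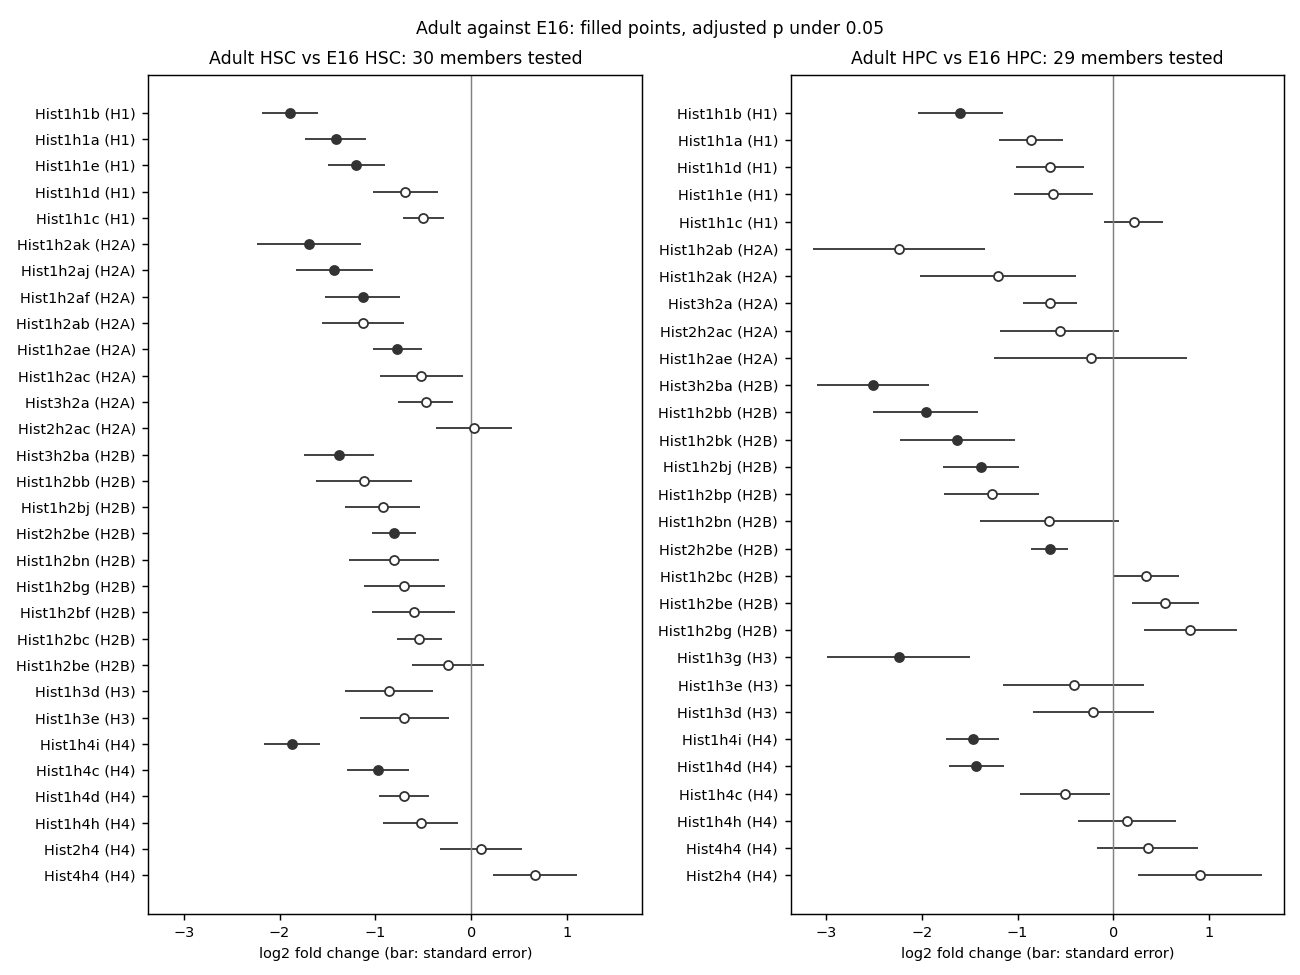
Log2 fold change of Adult against E16 (horizontal axis, bars are the standard error) for the 30 members tested in HSC and the 29 tested in HPC, ordered by family; filled points have an adjusted p under 0.05. All 11 filled points in HSC and all 9 in HPC lie below 0.

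The library codes in the labels differ between E16 and Adult HSC, and what they mark is not stated. P0 and Adult HSC libraries are coded n with a number, whereas E14, E16 and E18 libraries are coded nb with a number. The P7 and P14 libraries are coded na with a number. The HSC steps from E18 to P0, P0 to P7 and P14 to Adult thus also change code, and age and code cannot be told apart in them. A comparison of P0 with Adult, chosen after the data were seen, called 0 members higher and 4 of 30 lower (21% of all genes called, 10.4% lower). Hist1h1a fell by 2.04, Hist1h4i by 1.24, Hist3h2ba by 1.17 and Hist1h1b by 1.15 on the log2 scale, while Hist1h1e at -0.81 missed the threshold (adjusted p = 0.0534 by limma). The median of the members tested was -0.55, against 0.01 over all genes. In HPC every age has a code of its own, so age and code cannot be told apart there.

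Markers of other cells also differed between E16 and Adult HSC. Summed progenitor markers were at 420.7 to 739.8 CPM at E16 and 290.2 to 379.2 in Adult. Of 8 macrophage markers, 5 rose and 1 fell, and their summed level was 61.56 to 92.5 CPM at E16 and 96.48 to 160.7 in Adult. Of 6 erythroid markers, 4 fell, from a sum of 38.31 to 123.1 CPM to one of 17.17 to 32.24. Summed T and NK cell markers were at 18.19 to 42.01 CPM at E16 and 72.38 to 90.87 in Adult (1 of 2 tested rose), and hepatocyte markers at 12.9 to 16.14 and 23.86 to 40.86 (2 of 3 rose). Summed endothelial markers were at 356 to 412.5 CPM at E16 and 194 to 289.5 in Adult (4 of 4 tested fell), and B cell markers at 166.4 to 196.8 and 108.5 to 139.7 (1 of 2 fell). None of these sums overlapped between the ages. Their part in the histone result was not tested.

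Adjacent ages of HSC moved few members, and each age stands in 2 of these comparisons. From E14 to E16 no member was called by limma or by edgeR on recovered reads (4 members higher and 0 lower at an unadjusted p under 0.05; 0.0524% of all genes were called). From E16 to E18, 1 member rose and 3 fell (5.45% of all genes called, 2.42% higher and 3.03% lower). The riser was Hist1h2bc, an H2B gene also made as polyadenylated RNA, at 10.03, 20.99, 22.9 and 23.8 RPKM at E16 and 40.4, 46.8 and 33.1 at E18. All E18 libraries lay above all E16 libraries, a log2 fold change of 1.05 (SE 0.254, adjusted p = 0.014 by limma). Hist1h2bg fell by 1.58, Hist1h2bj by 1.56 and Hist1h2ae by 1.03. With edgeR on recovered reads only Hist1h2bc was called. No member was called without E18 replicate 2 or without E16 replicate 1, 1 without E18 replicate 1 or E16 replicate 3, and 2 without E16 replicate 2. The call of Hist1h2bc ended without E18 replicate 1 or 2 or E16 replicate 1. From E18 to P0, Hist1h2bc fell back by 0.98, to 16.3, 16.4, 25.3 and 21.98 RPKM, and Hist1h1a rose by 1.35 (4.77% of all genes called, 2.96% higher and 1.81% lower). Hist1h1a was at 5.52, 9.87 and 10.4 RPKM at E18 and at 14.7, 23.6, 30.3 and 20.99 at P0, and both pairs of groups were apart. With edgeR on recovered reads neither was called. That fall of Hist1h2bc was no longer called without E18 replicate 1 or 2 or without P0 replicate 1 or 2. The rise of Hist1h1a lost its call without E18 replicate 1 or without P0 replicate 3. Neither gene was thus called without E18 replicate 1. In each refit without 1 of these libraries, 1 member was called.

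From P0 to P7, 0 of 30 members were called by limma or by edgeR on recovered reads (1 higher and 4 lower at an unadjusted p under 0.05), where 5.94% of all genes were (3.27% higher and 2.67% lower). Without P7 replicate 1, 1 member was called. In that comparison 7 of 20 S phase genes rose. From P7 to P14, 3 members fell (1.71% of all genes called, 0.629% higher and 1.09% lower). Hist1h4i stood at 10.3, 5.54, 12.0 and 13.5 RPKM at P7 and at 1.68, 3.32, 2.33 and 4.19 at P14. The groups were apart, it fell by 1.68 (SE 0.295, adjusted p = 0.00241 by limma), and the call held in all 8 refits without 1 library. Hist1h1b fell by 1.13 and Hist1h1c by 0.83, but these calls held in 0 and 1 of the 8 refits. With edgeR on recovered reads only Hist1h4i was called. The count was 1 in 6 of these refits, and 2 without P7 replicate 2 or without P14 replicate 4. From P14 to Adult, Hist1h4i rose by 1.07 (adjusted p = 0.0295 by limma; 5.35% of all genes called, 2.25% higher and 3.09% lower), to 8.96, 5.97, 4.76 and 6.09 RPKM, without overlap. That call ended with edgeR on recovered reads, without P14 replicate 1 or 3, or without Adult replicate 1, 2 or 4. So the H4 gene Hist1h4i was lowest at P14, whereas Hist1h1a and Hist1h1b had their lowest group means in Adult HSC. Library codes differ between P14 and Adult as well as between P0 and P7, so age and code cannot be told apart in these steps.

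**Figure D3:**
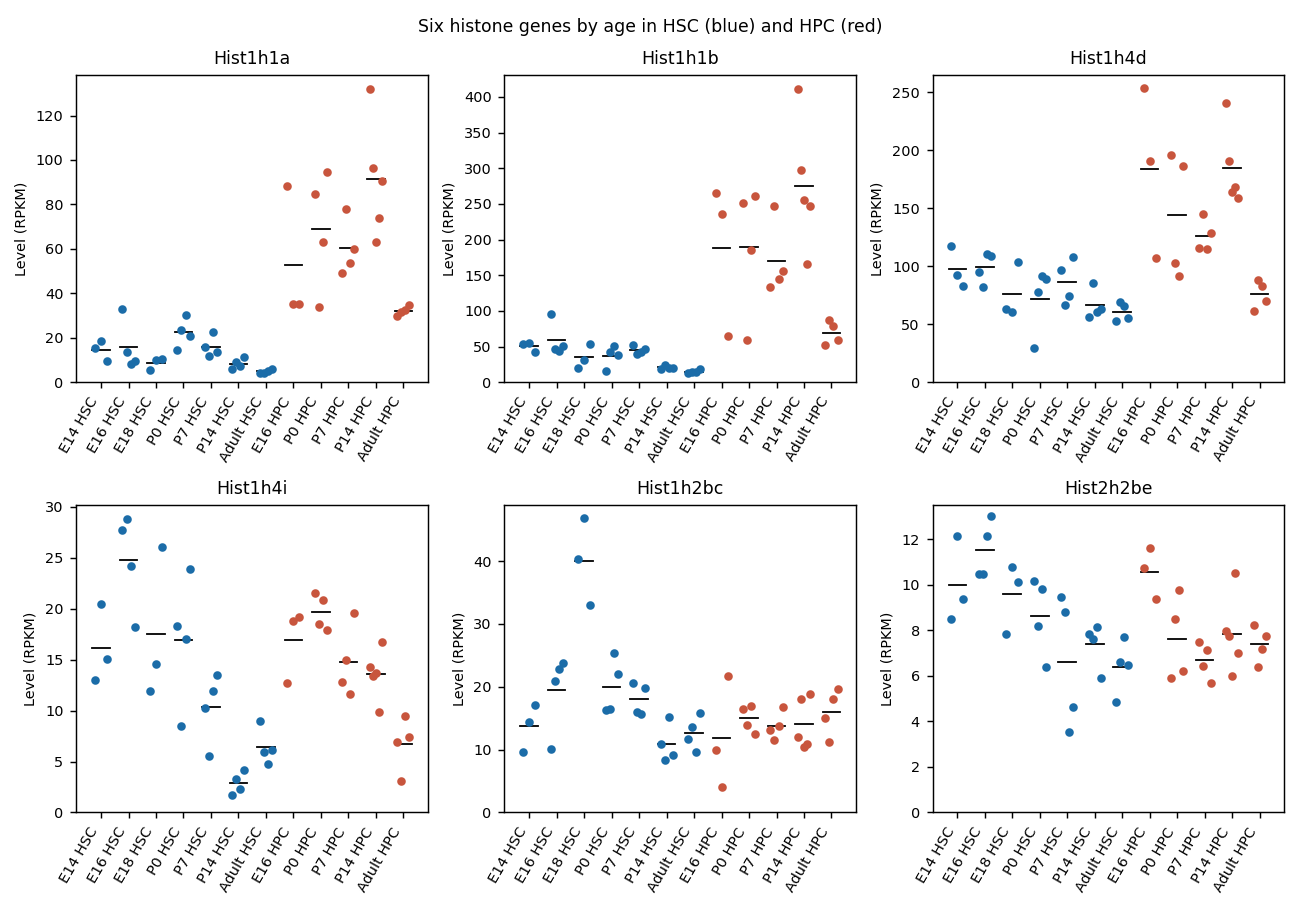
Level in RPKM (vertical axes, linear from 0) of 6 histone genes in each library (points) of the HSC ages (blue) and HPC ages (red), with group means as lines. Group means of Hist1h1a and Hist1h1b are higher in HPC than in HSC at E16 and in Adult, and lower in Adult than at E16 in both kinds. The HPC fall of Hist1h1a from E16 to Adult was not called, and some E16 HPC libraries of Hist1h1b overlap the other groups. Hist1h2bc peaks at E18 in HSC, and Hist1h4i has its lowest HSC values at P14.

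In HPC, 9 of 29 members tested fell from E16 to Adult and 0 rose (edgeR's quasi-likelihood test; 27% of all genes called, 15% higher and 12% lower), and the median of those tested was -0.66, against 0.05 over all genes. Hist1h4d stood at 254, 190 and 107 RPKM at E16 and at 61.4, 88.2, 82.8 and 70.3 in Adult. The groups were apart, and it fell by 1.43 on the log2 scale (SE 0.286, adjusted p = 0.000864 by edgeR). Hist1h4i was at 12.7, 18.8 and 19.2 RPKM at E16 and at 6.95, 3.1, 9.42 and 7.36 in Adult, and it fell by 1.47 without overlap (adjusted p = 0.000522 by edgeR). Hist1h1b was at 265, 236 and 64.6 RPKM at E16 and at 52.7, 87.2, 79.3 and 59.5 in Adult, where the third E16 library fell among the Adult ones. Its log2 fold change of -1.60 (SE 0.442, adjusted p = 0.0108 by edgeR) was no longer called without E16 replicate 1 or without E16 replicate 2. Hist1h1a was at 88.1, 35.1 and 35.1 RPKM at E16 and at 29.9 to 34.5 in Adult, just apart, and its value of -0.86 did not pass (adjusted p = 0.0589 by edgeR). The largest folds were of members with few reads, with Hist3h2ba at -2.51, Hist1h3g at -2.24, Hist1h2bb at -1.96 and Hist1h2bk at -1.63. Hist1h2bj fell by 1.39 and Hist2h2be by 0.67, and the latter call ended without E16 replicate 2. The calls of Hist1h3g and Hist1h2bk held in 3 and 2 of 7 refits. In the refits without 1 library, 6 to 10 members were called. Markers of other cells differed in the same comparison. Of 8 macrophage markers 6 rose and 1 fell, from a sum of 49.05 to 83.02 CPM at E16 to one of 63.18 to 170.1 in Adult. T and NK cell markers went from 79.45 to 93.59 CPM up to 431.7 to 536.3, without overlap, with 1 of 2 tested called. Progenitor markers summed to 2410 to 2669 CPM at E16 and 1287 to 1881 in Adult, also without overlap, with 1 of 6 lower and 1 higher. Blood markers summed to 1727 to 2314 CPM at E16 and 2767 to 3166 in Adult, and B cell markers to 466.3 to 595.1 and 649.5 to 875. HSC markers summed to 1284 to 1316 CPM at E16 and 975.5 to 1193 in Adult, and hepatocyte markers to 17.25 to 24.78 and 37.18 to 43.45. These last sums did not overlap either. The part of these markers in the histone result was not tested.

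P14 was the HPC age with the highest summed level, and Adult HPC were set against it as well. There 9 of 29 members fell and 1 rose (28.9% of all genes called, 14.9% higher and 14% lower), with a median of -0.55 against 0.04. Hist1h1b was at 412, 297, 256, 166 and 247 RPKM at P14, all above the 4 Adult libraries, and fell by 2.24 (SE 0.416, adjusted p = 0.000653 by edgeR). Hist1h1a was at 132, 96.6, 63.2, 73.8 and 90.5 RPKM at P14, also apart from Adult, and fell by 1.77 (SE 0.308, adjusted p = 0.000367). Hist1h4d fell by 1.53 (adjusted p = 0.000303 by edgeR) and Hist1h4i by 1.26 (adjusted p = 0.00126), Hist1h2bb by 2.69, Hist1h2bk by 2.22, Hist1h2bj by 2.19, Hist1h2bp by 1.53 and Hist1h4c by 1.47. The exception was Hist1h2be, which rose by 0.97 (adjusted p = 0.0193 by edgeR), from 0.515 to 1.03 RPKM at P14 to 1.14 to 2.5 in Adult. In M21 it overlaps Hist1h1e on the same strand, and its call ended without Adult replicate 1 or 4. The 9 that fell each held in all 9. Adult HPC stand in both comparisons. The summed progenitor markers ran from 2458 to 19790 CPM in P14 HPC and from 1287 to 1881 in Adult HPC. Endothelial markers summed to 151.4 to 233.7 CPM at P14 and 255.5 to 299.6 in Adult. Hepatocyte markers summed to 24.02 to 30.48 CPM at P14 and 37.18 to 43.45 in Adult. None of these sums overlapped, whereas those of the other marker lists did. The part of these markers in the P14 levels was not tested.

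Between the younger HPC ages only Hist1h2bp was called. This H2B gene had 14 to 18 reads per library at E16, 0 to 5 at P0 and 11 to 23 at P7. It fell by 2.67 from E16 to P0 (adjusted p = 0.00946 by edgeR; 3.27% of all genes called, 0.691% lower) and rose by 2.58 from P0 to P7 (adjusted p = 0.012; 1.5% called, 0.583% higher), and both comparisons use the same P0 libraries. With only the groups compared in the fit, 0 members were called in either comparison: Hist1h2bp missed the threshold from E16 to P0 and did not pass the filter on low counts from P0 to P7. Without P0 replicate 1, 2 members were called from E16 to P0. From P7 to P14, edgeR called 0 members (5 higher and 2 lower at an unadjusted p under 0.05) and DESeq2 called 1, where edgeR called 9.84% of all genes (4.79% higher and 5.06% lower). EdgeR called 1 without P14 replicate 2 and 1 without P14 replicate 4.

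HSC and HPC were compared at E16 and in Adult, and Hist1h1a and Hist1h1b were lower in HSC at both. Marker genes followed the labels: of 8 HSC markers 6 were higher in HSC than in HPC at E16 and 7 in Adult, and of 6 progenitor markers 4 and 5 were lower. At E16, 6 of 36 members were higher and 4 lower in HSC (limma; 23.2% of all genes called, 12.7% higher and 10.5% lower), and the median of 0.02 was close to that of all genes, -0.01. Hist1h1a was lower in HSC by a log2 fold change of -1.85 (SE 0.365, adjusted p = 0.00022 by limma), without overlap, and Hist1h1b by -1.58 (adjusted p = 0.00773), with overlap at the third HPC library. Hist1h2bj (-1.29) and Hist1h4d (-0.89) were lower as well. In the other direction Hist1h1c was higher in HSC by 0.95 (SE 0.268, adjusted p = 0.00837 by limma). Its values were 8.59 to 11.1 RPKM in HSC and 6.44, 2.07 and 6.86 in HPC, so the groups were apart. Hist1h2aj (1.35, a pseudogene in M21), Hist1h3d (1.31), Hist1h2af (1.02), Hist1h2bc (0.82) and Hist3h2a (0.76) were higher too. With edgeR on recovered reads 5 members were called. The number called by limma ran from 4 without E16 HPC replicate 2 to 9, and was 6 without E16 HSC replicate 1. Hist1h1a and Hist1h2bj kept their calls in all 7 refits, Hist1h1b lost its call without E16 HPC replicate 1 or 2, and Hist1h1c lost its call without E16 HPC replicate 2, with a value of 0.47. The calls of Hist1h2bc, Hist1h3d, Hist1h4d and Hist3h2a held in 2 or 3 of the 7.

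In Adult cells, 1 of 36 members was higher and 5 were lower in HSC (28.4% of all genes called, 13.2% higher and 15.3% lower), with a median of -0.44 against -0.04. Hist1h1a was lower by -2.59 (SE 0.338, adjusted p = 1.12e-07 by limma) and Hist1h1b by -2.16 (SE 0.407, adjusted p = 8.6e-05), and every HSC library lay below every HPC library for both. Hist1h2bg (-1.61), Hist1h2be (-1.09) and Hist1h2bj (-0.97) were lower too, and Hist3h2a was higher by 0.72. The calls of Hist1h2bj and Hist3h2a held in 3 and 2 of 8 refits, and those of the others in all 8. Hist1h1c, at 6.05 to 7.67 RPKM in Adult HSC and 5.54 to 7.33 in Adult HPC, overlapped. No difference between HSC and HPC in the Adult minus E16 change was called for any of 36 members, by limma or by edgeR on recovered reads (0 higher and 5 lower at an unadjusted p under 0.05; smallest adjusted p 0.0903 by limma; 4.09% of all genes called, 1.95% higher and 2.14% lower). The Hist1h1c difference of -0.83 had an adjusted p of 0.216 and that of Hist1h2bc, -1.10, one of 0.14. That count was 1 without E16 HSC replicate 1, Adult HSC replicate 1 or E16 HPC replicate 3. Cell type and library code cannot be told apart in these comparisons.

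Gene lists put these changes beside other genes of the cell cycle and of histone supply. Between E16 and Adult HSC, 24.5% of all genes were called (12.3% higher and 12.2% lower). There 16 of 20 S phase genes fell and 0 rose (median -0.61), among them Rrm2, a ribonucleotide reductase subunit, by 0.83. Of 20 G2/M genes 18 fell (median -1.01), among them the mitotic kinase Plk1 by 1.79. Of 11 replacement variant genes outside the clusters 6 fell and 0 rose (median -0.56), led by the centromeric H3 variant Cenpa (-1.68), the linker H1f0 (-1.57) and the H2A variant H2afv (-0.56). Of 20 chaperones 6 fell and 3 rose, where Nasp, a carrier of H3 and H4, fell by 1.03 and Hat1, which acetylates new H4, by 0.60. In HPC between these ages, 27% of all genes were called (15% higher and 12% lower). There 9 of 20 S phase genes fell (median -0.43) and 17 of 20 G2/M genes fell (median -1.11). Of the variants 3 of 11 fell, and 4 of 20 chaperones fell while 1 rose. From P7 to P14 in HSC, 13 G2/M and 3 S phase genes fell (1.71% of all genes called, 1.09% lower). Adult HSC were below Adult HPC in 17 of 20 G2/M and 10 of 20 S phase genes, with 1 S phase gene higher. Of all genes, 28.4% were called there (13.2% higher and 15.3% lower in HSC).

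Genes that make and process histone RNA were a list of their own. Of 16 tested in HSC between E16 and Adult, where 24.5% of all genes were called, 1 rose (Ncbp2, of the nuclear cap-binding complex, 0.48) and 2 fell (the cleavage factors Cstf2, -0.76, and Cpsf3, -0.46). In HPC, where 27% of all genes were called, 2 of 17 fell, Cpsf3 (-0.73) and Ncbp1 (-0.58). Slbp, the stem-loop binding protein, had group means of 169.0 to 217.5 CPM in HSC and 138.2 to 182.6 in HPC. It was called in 1 comparison between ages or cell types, higher in HSC than in HPC at E16 by 0.49 (adjusted p = 0.00135 by limma). Npat, the coactivator of histone transcription, ran from 43.81 to 71.5 in HSC and from 58.68 to 76.35 in HPC and was not called between ages.

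At P0, 2 histone genes were called between Ifnar ko and wild type, both in HPC. In HSC, 0 of 34 members were called by edgeR or DESeq2 (0 higher and 1 lower at an unadjusted p under 0.05; smallest adjusted p 0.541 by edgeR; 1.14% of all genes called, 0.21% higher and 0.931% lower). In HPC, 1 of 25 rose and 1 fell (10.4% of all genes called, 4.97% higher and 5.4% lower). Hist1h2bc stood at 54.2, 52.1, 53.0 and 39.7 RPKM in wild type and at 27.9, 22.3, 31.4 and 28.7 in Ifnar ko. The groups were apart, it fell by 0.92 (SE 0.168, adjusted p = 0.00451 by edgeR), and the call held in all 8 refits without 1 library. Hist1h1e stood at 44.4, 45.6, 59.2 and 43.5 RPKM in wild type and at 86.7, 69.6, 80.8 and 65.6 in Ifnar ko, again apart, a rise of 0.59 (SE 0.155, adjusted p = 0.0307 by edgeR). The Hist1h1e call ended without wild type replicate 1 or 2 or Ifnar ko replicate 1 or 3, and 4 members were called without wild type replicate 4. Hist1h4d, at 180 to 459 RPKM in wild type and 231 to 547 in Ifnar ko, overlapped. The same Ifnar ko libraries differed in markers: progenitor markers summed to 761 to 932.1 CPM against 1854 to 2600 in wild type, and 5 of 6 fell. Erythroid markers summed to 19.38 to 97.92 against 10.05 to 11.5. Macrophage markers summed to 34.92 to 86.69 against 125 to 151.7, with 3 of 7 tested lower. B cell markers summed to 164.2 to 196.8 CPM against 474.5 to 662.6, with 4 of 4 lower, and stroma markers to 4.769 to 15.32 against 2.255 to 2.785, with 1 of 1 tested higher. T and NK cell markers summed to 35.78 to 59.07 CPM against 67.87 to 105.2, and hepatocyte markers to 15.58 to 22.01 against 23.71 to 32.3. Their part in the Hist1h2bc and Hist1h1e results was not tested.

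At P14, edgeR called no member in any genotype contrast of HPC, while DESeq2 called some in 3 of the 5. These contrasts share groups. With Flt3 ITD in Ifnar +/- cells, edgeR called 0 of 51 (9 higher and 1 lower at an unadjusted p under 0.05; 4.84% of all genes called) and DESeq2 called 6. With Flt3 ITD in Ifnar -/- cells both called 0 (3 higher and 1 lower unadjusted; 0.962% called by edgeR). For Ifnar -/- against +/- in Flt3 +/+ cells, edgeR called 0 (5 higher and 0 lower unadjusted; 4.39% called) and DESeq2 3. In Flt3 ITD/+ cells both called 0 (4 higher and 5 lower unadjusted; 4.03% called), and edgeR called 1 without replicate 3 of Ifnar -/-, Flt3 ITD/+. The interaction gave 0 by edgeR (1 higher and 6 lower unadjusted; 0.0115% called) and 1 by DESeq2.

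Leaving out replicate 2 of the Ifnar +/-, Flt3 +/+ group changed 3 of these 5 counts. Hist1h2ae, an H2A gene, stood at 0.36, 6.60, 0.42 and 0.21 CPM in that group, from 26, 440, 26 and 19 reads. It stood at 6.81, 7.75, 7.72 and 6.66 in Ifnar +/-, Flt3 ITD/+. In Ifnar -/-, Flt3 +/+ it was at 3.17, 5.59, 6.97 and 8.92, and in Ifnar -/-, Flt3 ITD/+ at 0.23, 1.73, 8.16, 6.83 and 0.45. So 3 libraries of the Ifnar +/-, Flt3 +/+ group were low and replicate 2 was near the libraries of the other groups, while the Ifnar -/-, Flt3 ITD/+ group held both low and high libraries. Hist1h1e was likewise highest in replicate 2 of the first group, at 4.92, 17.64, 3.04 and 4.93 CPM, against 10.3 to 12.17 in Ifnar +/-, Flt3 ITD/+. Without replicate 2, edgeR called 12 of 52 members higher with Flt3 ITD in Ifnar +/- cells (32.5% of all genes called), 8 higher with Ifnar -/- in Flt3 +/+ cells (34.9%) and 12 lower in the interaction (31.3%). The counts for Flt3 ITD in Ifnar -/- cells and for Ifnar -/- in Flt3 ITD/+ cells stayed at 0 (1.89% and 6.1% of all genes called). In that refit Hist1h2ae had a log2 fold change of 4.34 with Flt3 ITD in Ifnar +/- (SE 0.973, adjusted p = 0.00328 by edgeR) and Hist1h1e one of 1.31 (SE 0.285, adjusted p = 0.00271). Without replicate 1, 3 or 4 of that group, no member was called in these contrasts. Other measures differed along with it: ribosomal protein genes took 13.2, 9.78, 17.5 and 13.5% of the reads in replicates 1 to 4, against 9.75 to 11% in Ifnar +/-, Flt3 ITD/+, a range that holds replicate 2 and none of the other 3. In some marker lists replicate 2 was highest, and in others replicate 1 was. Blood markers summed to 944, 3192, 883.5 and 1542 CPM and HSC markers to 533.5, 1217, 584.4 and 747.8 in replicates 1 to 4. Progenitor markers summed to 9860, 993.5, 928.4 and 1053 CPM and T and NK cell markers to 552.3, 154, 299.6 and 191.1. Over genes, replicates 2 and 3 had the same lowest and highest correlation with the rest of their group, 0.939 and 0.96. The part of these measures in the histone values was not tested.

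**Figure D4:**
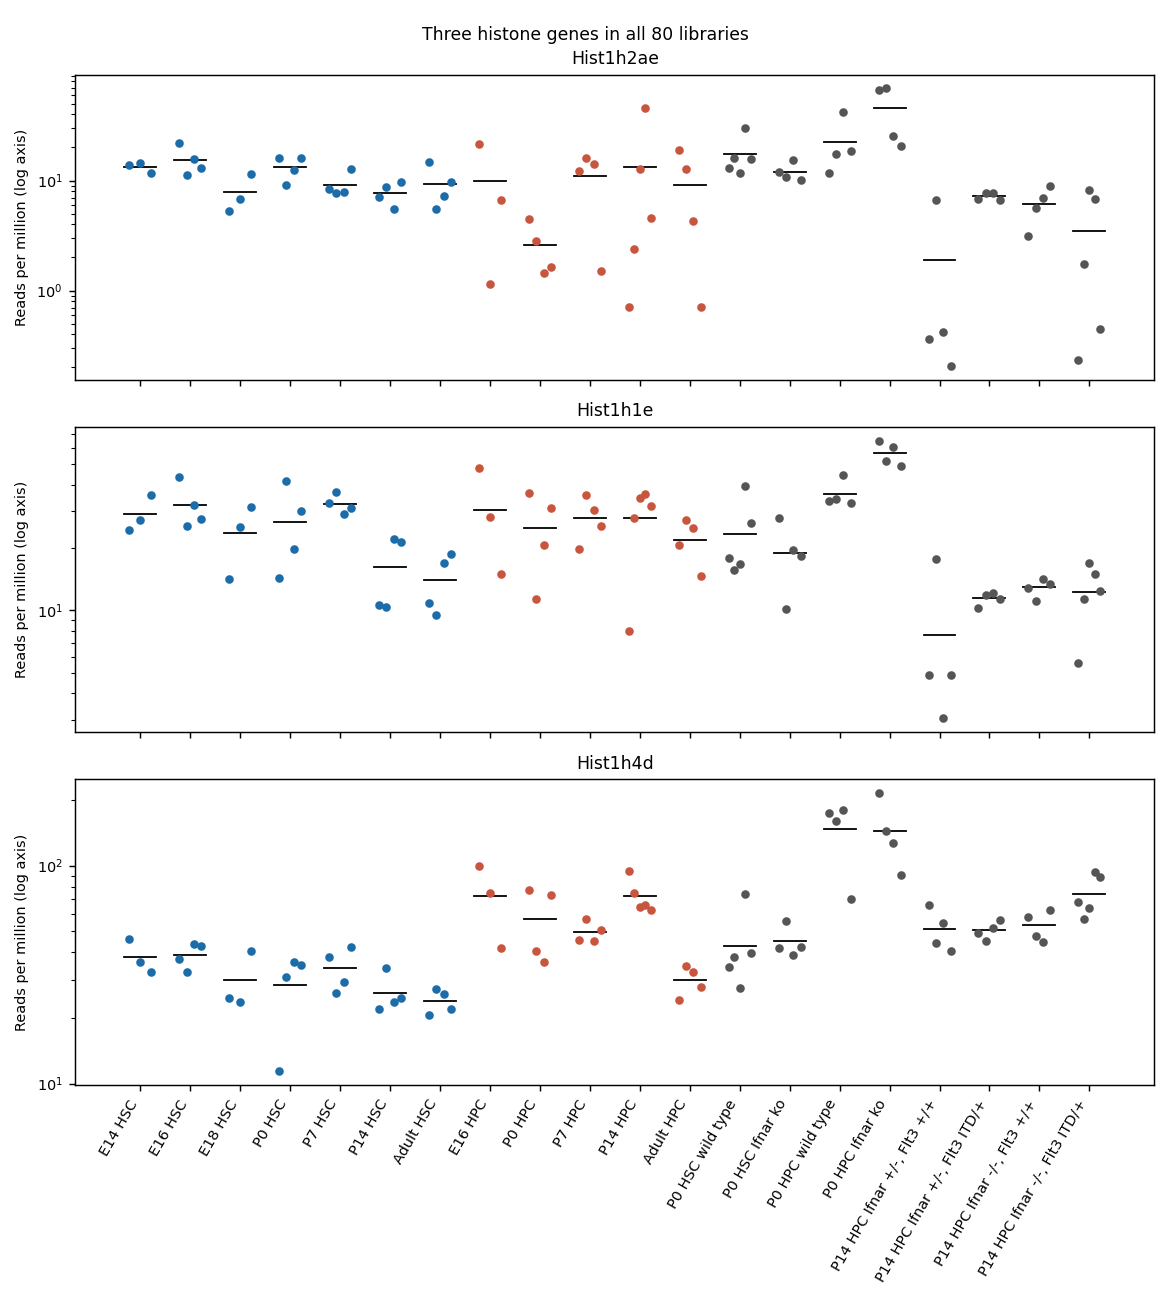
CPM (reads per library total, vertical axes, logarithmic) of Hist1h2ae, Hist1h1e and Hist1h4d in each of 80 libraries (points) of 20 groups, with group means as lines. Hist1h2ae spreads over more than an order of magnitude within several HPC groups, where Hist1h4d stays within 3.15-fold of its lowest library in every group.

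The spread of Hist1h2ae exceeded 10-fold in 6 of the 11 HPC groups. Its highest library exceeded its lowest by 63.9-fold in P14 HPC of the age series, by 26.8-fold in Adult HPC, by 18.8-fold in E16 HPC and by 10.4-fold in P7 HPC. In the P14 genotype groups it did so by 32-fold in Ifnar +/-, Flt3 +/+ and by 34.8-fold in Ifnar -/-, Flt3 ITD/+. The other HPC groups had smaller ratios, 3.13 in P0 HPC of the age series, 3.63 and 3.34 in P0 wild type and Ifnar ko, 2.82 in Ifnar -/-, Flt3 +/+ and 1.16 in Ifnar +/-, Flt3 ITD/+. The ratio was 1.23 to 2.65 in the HSC age groups. In P14 HPC its values were 1.55, 5.14, 27.7, 99.1 and 9.87 RPKM. Hist1h4d in the same 5 libraries was at 240, 190, 164, 168 and 159 RPKM, so the libraries low in the H2A gene were not low in the H4 gene. Over all groups, the fold between the highest and lowest library was 1.24 to 3.15 for Hist1h4d.

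In the P14 genotype groups Hist1h1a and Hist1h1b stood lower than in the P14 HPC of the age series, in separately made tables. Hist1h1b was at 19.3 to 43.2 RPKM there and at 166 to 412 in the age series. Hist1h1a was at 5.9 to 35.2 RPKM against 63.2 to 132. The other members set side by side overlapped: Hist1h4d was at 103 to 238 RPKM against 159 to 240. In CPM, Hist1h1e was at 3.04 to 17.64 against 7.98 to 36.1, and Hist1h1c at 1.86 to 9.07 against 3.57 to 9.02. No test was made across these tables. Among the genotype libraries the highest Hist1h1a values, 30.4 and 35.2 RPKM, were replicates 4 and 5 of Ifnar -/-, Flt3 ITD/+, and the other 15 lay at 5.9 to 15.4.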

How the data were processed

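The RNA of HSC and HPC was extracted with a Qiagen micro plus kit and made into cDNA with a Clontech kit, per the labels; how the cDNA was primed is not given in the sources used here. The authors used STAR 3.0.4 and featureCounts 1.4.5 of Subread, per the submitters' processing notes, and the genome build is not given in the sources used here. They deposited raw read counts for the HPC age libraries and all genotype libraries. The HSC age columns hold deposited RPKM values, although the table is named as counts. Each RPKM was a whole multiple of 1 read within a tolerance of 1e-05 for 25622 of 25622 detected genes, 16624 with the M21 exon length and 8998 with a length found from the values, so CPM could be given for every library (at least 99.9985% of each total recovered). For those 8998 the length was the smallest that gave whole reads, so wholeness is a check only for the 16624.

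Of 41388 genes in the first table, 40254 had a symbol; the second held 40481. A further 2 rows that are not mouse genes (at most 0.000144% of reads) and 1 column of values were not used. RPKM, and the HSC with HPC comparisons, were tested with limma 3.58.1 on log2(TMM-scaled RPKM + 0.5), over genes above 1 RPKM in at least 3 libraries; such a fold change understates that of low genes. Counts were tested with edgeR 4.0.16 (quasi-likelihood, TMM, default filter on low counts) in R 4.3.3, with DESeq2 1.42.0 as an alternative. The scripts were tested on simulated data. All tests were two-sided, over 22 comparisons, and p-values were adjusted by Benjamini-Hochberg over all genes tested. Separate fits, without covariates, held all HSC ages, all HPC ages, both genotypes of P0 HSC, both of P0 HPC, and the 4 genotypes of P14 HPC; the HSC with HPC comparisons held both age series. Sums over members are shares of counts and carry counting error besides the spread shown.

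The members and lists were chosen with earlier results of these data known. The text names the leading members per length of each family (up to 3), all H1 genes, members also known as polyadenylated RNA, testis members, and in each comparison all called members if at most 8, otherwise at least the 4 with the largest change; other called members are given as well. From each list it names up to 3 genes of smallest adjusted p. Alternatives were the pseudocount, the scaling, the filters, the tool, the libraries in the fit, the replicate number as a block and leaving out each library; Adult against P0 HSC was added after seeing the data. Promoters came from RefSeq (GRCm38.p6) and transcripts from GENCODE M21.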

Additional observations from a re-analysis of the deposited data

Results flagged for a closer look

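Among 187 sets of values of 1 gene (or of the member sum) in 1 group of 4 to 10 libraries, 20 held a library that stood far from the others of its group by Dixon's criterion, where chance gives about 1 in 20.

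Replicate 4 of P0 HSC wild type was high in 5 of these sets. Its summed member reads were 402.1 CPM (group median 174.7), and it stood at 188.7 RPKM for Hist1h4d, 82.13 for Hist1h2bc, 33.35 for Hist1h1c and 65.9 for Hist1h2ae. Replicate 1 of E16 HSC was high in 3, with 343.2 summed CPM (median 236.5), 95.6 RPKM of Hist1h1b and 13.71 of Hist3h2a. Replicate 2 of P14 HPC Ifnar +/-, Flt3 +/+ was high for Hist1h1e (23.58 RPKM, median 6.587) and for Hist1h2ae (14.35, median 0.8476).

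Of the H1 genes, Hist1h1b was high in replicate 1 of P0 HPC Ifnar ko (98.03 RPKM), Hist1h1e in replicate 3 of P0 HPC wild type (59.24), and Hist1h1a in replicate 3 of P0 HSC Ifnar ko (10.38), while Hist1h1c was low in replicate 3 of P14 HSC (6.202). Hist1h2bc was low in replicate 4 of P0 HPC wild type (39.69 RPKM). Hist1h2ae was high in replicate 4 of P14 HPC in the age series (99.15 RPKM, median 9.875) and in replicate 4 of P7 HSC (27.41). Hist3h2a was high in replicate 4 of P0 HPC Ifnar ko (2.688 RPKM) and in replicate 1 of P14 HPC Ifnar -/-, Flt3 +/+ (1.419), and low in replicate 1 of P14 HPC Ifnar +/-, Flt3 ITD/+ (0.565).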

How the results depend on the processing

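No member called in a main comparison changed direction in that comparison under any alternative run. Named genes that were not called were not followed in this way. The pseudocount of 0.1, the fit without TMM scaling and the unfiltered counts left every count of called members within 1.5 times its main value. Without a filter on low values, the members called were 1 for E18 against E16 HSC, 0 for P0 against E18 HSC, 1 for P14 against P7 HSC, 0 for Adult against P14 HSC and 6 for E16 HSC against HPC. With edgeR on recovered reads they were 6 for Adult against E16 HSC, and, in the order just given, 1, 0, 1, 0 and 5. With only the groups compared in the fit they were 0 for P0 against E16 HPC, 0 for P7 against P0 HPC, 1 for P14 against P7 HPC and 5 for E16 HSC against HPC. DESeq2 gave 1 for P14 against P7 HPC, 6 for Flt3 ITD in Ifnar +/-, 3 for Ifnar -/- in Flt3 +/+ and 1 for their interaction. The cause of these shifts was not tested.

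Same-numbered libraries deviated together (a correlation over 0.1 in every pair) in no comparison. The correlation passed 0.1 in 2 of 3 pairs for P0 against E16 HPC and in 2 of 4 for P14 against P7 HPC. This cutoff cannot exclude that some libraries are paired, and the main tests treated none as paired. With the replicate number as a block, 1 member was called for P14 against P7 HSC and 1 for Flt3 ITD in Ifnar +/-, and 20 other counts stayed within 1.5 times.

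Leaving out each library in turn gave, in HSC, 8 to 11 members for Adult against E16, 0 for E16 against E14, 0 to 5 for E18 against E16, 1 to 3 for P0 against E18, 0 to 1 for P7 against P0, 1 to 2 for P14 against P7 and 0 to 1 for Adult against P14. In HPC it gave 6 to 10 for Adult against E16, 9 to 11 for Adult against P14, 1 to 2 for P0 against E16, 1 for P7 against P0 and 0 to 1 for P14 against P7. HSC against HPC gave 4 to 9 at E16, 4 to 8 in Adult and 0 to 1 for the difference of the age changes. For Ifnar ko at P0, HSC gave 0 and HPC gave 1 to 4. At P14 it gave 0 to 12 for Flt3 ITD in Ifnar +/-, 0 for it in Ifnar -/-, 0 to 8 for Ifnar -/- in Flt3 +/+, 0 to 1 for it in Flt3 ITD/+ and 0 to 12 for the interaction. Low read numbers limit most members: 43 of 63 stayed under 150 reads in every library.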
